A study of Homo sapiens with 6 samples.

Results

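The genes described here are the machinery by which a cell answers protein misfolding in the endoplasmic reticulum (ER) and shortage of amino acids, a set of 42 named genes that were listed by their known roles. They were the ER chaperones and folding factors (13 genes), ER-associated degradation and translocation (5), the stress sensors and transcription factors (6), the stress effectors downstream of ATF4 (5), asparagine synthetase with tRNA synthetases (4), amino acid transporters (4), and the enzymes of serine synthesis with its mitochondrial folate branch (5). Of the 42 genes, 41 were read, among 19775 genes on the array. SYVN1, a ubiquitin ligase of the ER membrane, was not read, because its probe set is shared with a microRNA gene. The cells were NCI-H226, an established human mesothelioma line, maintained as monolayers in RPMI 1640 with serum, glutamine, pyruvate and nonessential amino acids. The methods do not name the medium in which the spheroids were incubated. In the monolayer group (3 cultures) the cells were attached to plastic, and in the spheroid group (3 cultures) 10000 cells were spun together in each well coated with poly-HEMA, a polymer that cells do not adhere to, and incubated for 24 hours. The line stands for 1 tumor, and in RNA from whole cultures fewer cells with a transcript cannot be told apart from less transcript per cell.

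When unfolded proteins accumulate in the ER, the membrane sensors ATF6, IRE1 (encoded by ERN1) and PERK (encoded by EIF2AK3) start the unfolded protein response. ATF6 and the spliced form of XBP1, which IRE1 makes, raise chaperones and degradation factors. PERK phosphorylates the initiation factor eIF2, which slows translation in general but favours that of ATF4, and the kinase GCN2 does the same when uncharged tRNA builds up. ATF4 then raises genes for amino acid uptake, amino acid synthesis and tRNA charging, so chaperones and ATF4 targets report different arms of the response.

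RNA of each culture was hybridized to 1 Affymetrix U133 Plus 2.0 array, and the values are MAS5 signals, a linear brightness per probe set that the authors scaled to a common trimmed mean on every array. The median signal was between 14.6 and 14.7 in monolayers and between 15.2 and 18.1 in spheroids. Signals were therefore taken to log2 and centred on each array's median, which lowers spheroids against monolayers by 0.15 on average on the log2 scale compared with the deposited values. The shift is uneven and largest for spheroid replicate 2, whose median was 18.05 against 15.56 and 15.19 on the other spheroid arrays. A gene was read by its brightest probe set and called higher or lower in spheroids at an adjusted p under 0.05 by limma over all 54613 probe sets. Fold changes below are spheroids minus monolayers in centred log2 signal. All 9 mesothelial markers were read, with a summed signal of 11836 to 18921 in monolayers and 17679 to 20530 in spheroids. The sums were led by the keratins KRT18 and KRT19, which read 4534 to 5876, so they say little of the dimmer markers. WT1 was between 1347 and 2009 over all arrays, PDPN was called higher in spheroids (1.10, adjusted p = 0.0396 by limma), and THBD, with all spheroids lower, did not pass the test (-1.24, adjusted p = 0.109). CALB2 was at 1582 on the first monolayer array against 163.4 and 83.6 on the other monolayers (2.49, adjusted p = 0.125 by limma). Every mesothelial marker was highest among monolayers on this array, from KRT19 (5152 against 4984 and 4534) to KRT5 (1845 against 129.9 and 79.3). On the first spheroid array every mesothelial marker but KRT18 was likewise highest among spheroids. There KRT5 read 910.5 against 266.7 and 290.4, CALB2 2238 against 1317 and 1765, and KRT18 5594 against 5876 and 5612. What sets the first array of each group apart was not tested. The 4 of 5 leukocyte markers read summed to 104.4 to 127.1 in monolayers and 143.3 to 179.2 in spheroids, led by ITGAM at 61.5 to 108.5, and all spheroids were higher at 3 of them, PTPRC (1.83, adjusted p = 0.106 by limma), CD3E and CD14. The 3 endothelial markers summed to 20.3 to 32.8 and 43.3 to 55.6, with all spheroids higher at VWF (2.01, adjusted p = 0.115 by limma). None of these leukocyte and endothelial markers was called, and the part of these differences in the results was not tested. As a check of RNA integrity, the 3′ signal of ACTB over its 5′ signal was 1.09 ± 0.0123 in the monolayers and 1.17 ± 0.0603 in the spheroids (mean ± SD, n = 3 each). By a two-sided exact permutation test p was 0.1, which is the lowest possible with 3 arrays a side, and 0.3 after adjustment over 6 control measures, and its part in the results was not tested.

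Of the ER chaperones DNAJB9 alone passed the test, and it rose in spheroids, while enzymes of serine synthesis, asparagine synthetase, the large neutral amino acid transporter and alanyl-tRNA synthetase fell in spheroids. Of the 41 genes, 2 were called higher (DNAJB9 and ATF6) and 7 lower (PHGDH, PSAT1, MTHFD2, ASNS, AARS1, SLC7A5 and SLC3A2), where limma called 3.88% of all genes higher and 9.22% lower. All members read lie above the median level of probe sets, and of the 12376 genes above it 5.76% were called higher and 14.5% lower, so the members' shares are near these. Of the 9 calls, that of PHGDH alone held for limma without its mean-variance trend and by the methods' t-test after adjustment. Among ER chaperones and folding factors 1 of 13 was called higher and 0 lower (1 lower at an unadjusted p under 0.05, and 0 in either direction by the methods' t-test after adjustment). ATF4 targets, which are the effectors, asparagine synthetase and tRNA synthetases, and transporters together, had 0 called higher (0 at an unadjusted p under 0.05) and 4 of 13 lower. The serine and folate enzymes had 3 of 5 lower.

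The median log2 fold change was -0.02 over the chaperones, -0.42 over the ATF4 targets and -0.67 over the serine and folate enzymes, against -0.06 over all genes and -0.12 over genes above the median level. These medians are a description with no test, and without monolayer replicate 1 they were 0.07, -0.77 and -0.75. The median of the chaperones was 0.12 on deposited values, 0.03 after quantile normalization and 0.12 after scaling to the 75th percentile, so its sign turned with the scaling. The medians of the other groups stayed below 0, at -0.28 for ATF4 targets and -0.53 for serine and folate enzymes on deposited values. Under the same scaling, members called higher went from 2 to 6 and members called lower from 7 to 6.

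**Figure D1:**
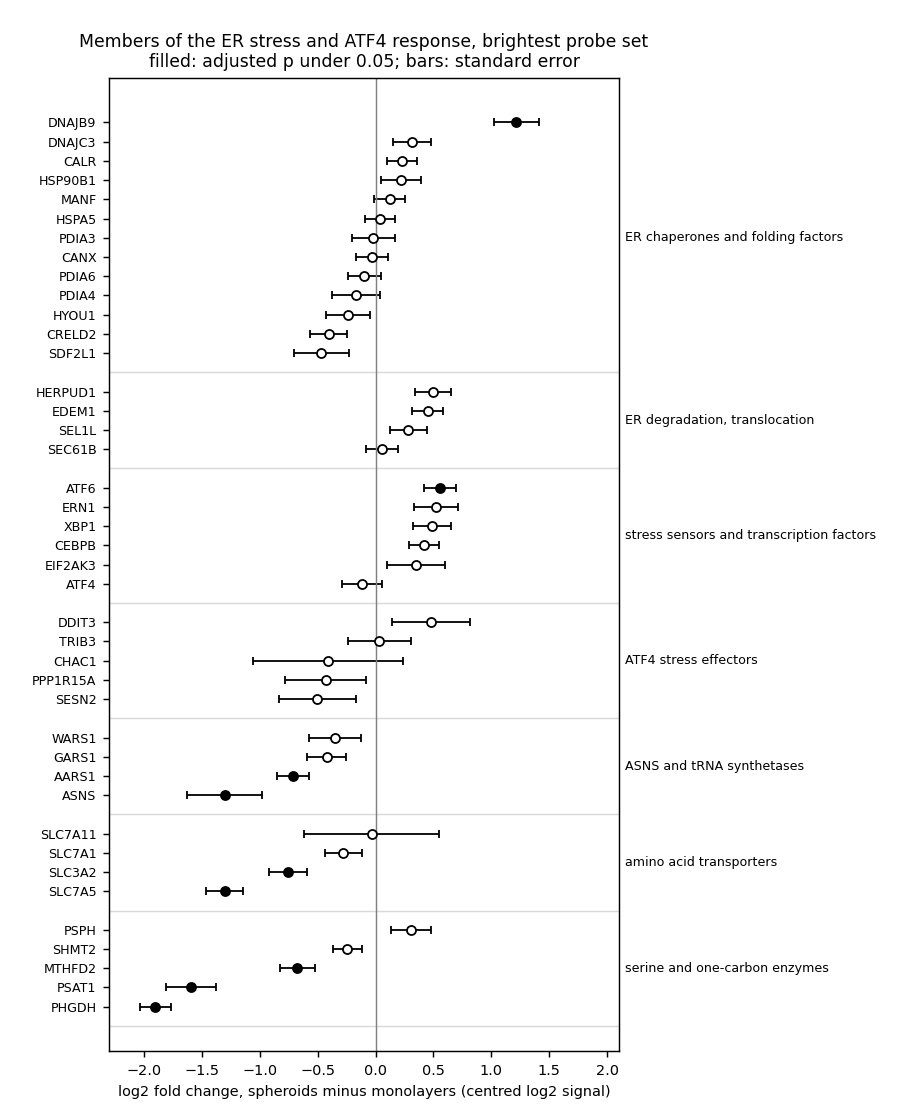
Log2 fold change (spheroids minus monolayers, centred log2 signal) of the 41 genes read, grouped by role, with filled points for an adjusted p under 0.05 by limma and bars for the standard error (n = 3 arrays per group). Most ER chaperones lie near 0 with DNAJB9 apart at 1.21, and the leftmost points are PHGDH at -1.90 and PSAT1 at -1.59.

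The central chaperone BiP, encoded by HSPA5, binds unfolded proteins in the ER lumen and is the usual marker of the unfolded protein response. Its signal was 4604, 4402 and 4263 in monolayers and 4646, 5203 and 5238 in spheroids. The deposited signals did not overlap, spheroids being higher, but the centred values did, and limma gave a log2 fold change of 0.04 ± 0.13 (standard error) with an adjusted p = 0.911. A dimmer probe set of HSPA5 read 334.3, 267.0 and 227.1 in monolayers against 411.0, 470.3 and 469.4 in spheroids, a log2 fold change of 0.58 (adjusted p = 0.0673 by limma). GRP94, encoded by HSP90B1, which folds a selected set of secreted and membrane proteins, read 2326, 1609 and 1645 in monolayers and 2426, 2287 and 2360 in spheroids (log2 fold change 0.22, adjusted p = 0.535 by limma). The first monolayer array was close to the spheroids at this probe set. A dimmer probe set of HSP90B1 gave -0.15 (adjusted p = 0.671 by limma), and those shared with a microRNA gene were not read.

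The lectin chaperones calreticulin (CALR) and calnexin (CANX), which hold glycoproteins during folding, had log2 fold changes of 0.23 and -0.03. The protein disulfide isomerases PDIA3, PDIA4 and PDIA6 lay between -0.17 and -0.02. At PDIA4 the first monolayer array read 2683 and the others 1605 and 1691, so the spread within monolayers was wider than the difference between groups. HYOU1, a nucleotide exchange partner of BiP, was at -0.24, MANF, a secreted stress-induced factor, at 0.12, and the co-chaperone DNAJC3 at 0.32. SDF2L1, a partner of ER J-domain proteins, was at -0.47 (standard error 0.24), and CRELD2, a small ER-stress-induced protein, at -0.41 (standard error 0.16, adjusted p = 0.177 by limma). None of these 10 genes passed the test.

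DNAJB9, also called ERdj4, is a J-domain co-chaperone of BiP that is known as a target of spliced XBP1 and restrains IRE1. Its signal was 974.5, 688.1 and 824.7 in monolayers and 1999, 1878 and 2492 in spheroids. Every spheroid array was above every monolayer array. DNAJB9 rose 2.32-fold, by 1.21 ± 0.19 (standard error) on the log2 scale (limma, adjusted p = 0.00563), and its other probe sets gave 1.53 and 1.55. It was called without any 1 of the 6 arrays, and lost its call without limma's trend (adjusted p = 0.0873) and by the methods' t-test after adjustment (adjusted p = 0.099).

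**Figure D2:**
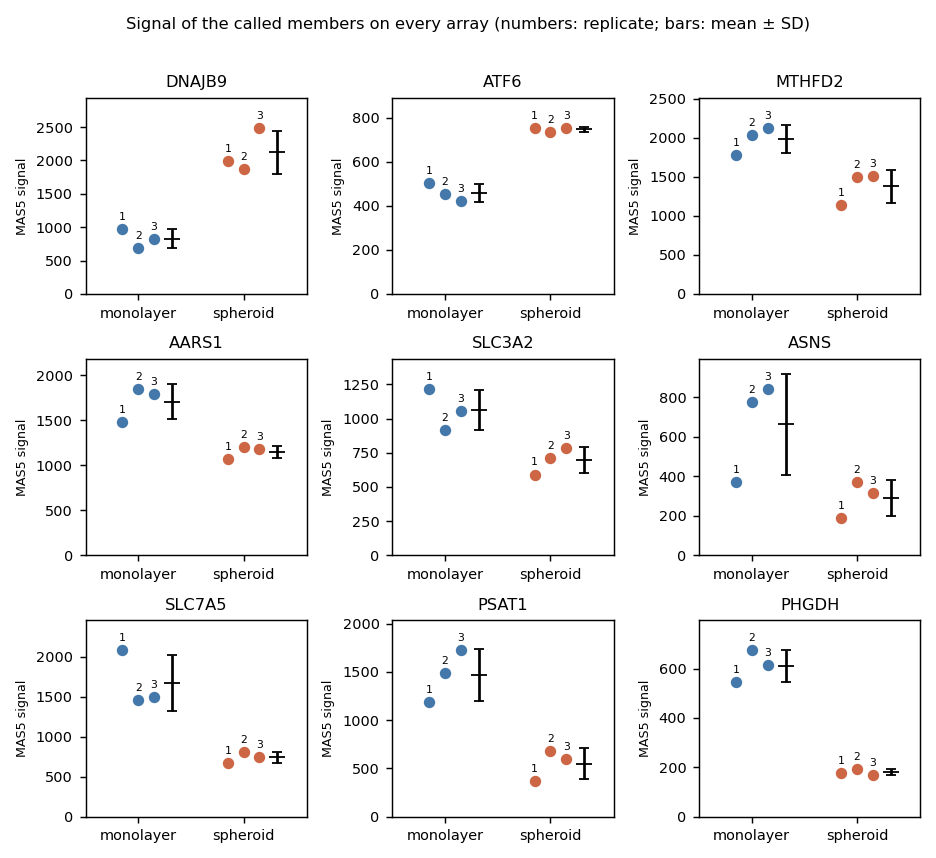
MAS5 signal of the 9 called genes on every array (blue, monolayer; orange, spheroid; digits give the replicate; bars, mean ± SD over 3 arrays), each panel on a linear axis from 0. DNAJB9 and ATF6 are higher on all spheroid arrays, the other 7 are lower, and ASNS of the first monolayer array (371.7) lies next to that of spheroid array 2 (368.5).

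The promoters of chaperone genes are known for the ER stress element, the letters CCAAT and CCACG with 9 bases of any kind between them, to which ATF6 binds together with NF-Y. The RefSeq windows of GRCh38.p14 from 250 bases before to 50 bases after the start site were searched on both strands for it. It was found in 7 of the 38 genes with a window, namely HSPA5, HSP90B1, CALR, CANX, PDIA6, CRELD2 and XBP1, against 0.0916% of 27305 genes. The sequences below, each on its gene's strand, are shown because these are the genes whose RNA was not called different, and the capitals mark the element. They are the whole window of HSPA5 (chr9:125241294-125241593, minus strand) and the stretches with 20 bases on each side of the element in HSP90B1 (chr12:103930196-103930359, plus strand), CALR (chr19:12938364-12938422, plus strand), PDIA6 (chr2:10812833-10812891, minus strand) and XBP1 (chr22:28800583-28800641, minus strand).
HSPA5: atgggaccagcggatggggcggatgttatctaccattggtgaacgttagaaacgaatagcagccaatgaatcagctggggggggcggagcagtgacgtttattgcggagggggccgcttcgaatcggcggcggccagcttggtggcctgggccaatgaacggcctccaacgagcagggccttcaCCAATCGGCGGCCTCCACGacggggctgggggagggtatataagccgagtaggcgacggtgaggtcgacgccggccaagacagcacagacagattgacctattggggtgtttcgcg
HSP90B1: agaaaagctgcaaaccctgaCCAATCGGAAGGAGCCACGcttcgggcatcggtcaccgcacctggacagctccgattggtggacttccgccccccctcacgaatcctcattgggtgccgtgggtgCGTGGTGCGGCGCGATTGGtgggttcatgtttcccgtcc
CALR: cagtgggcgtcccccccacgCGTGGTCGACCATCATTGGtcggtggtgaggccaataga
PDIA6: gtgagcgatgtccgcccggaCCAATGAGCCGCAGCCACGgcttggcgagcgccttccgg
XBP1: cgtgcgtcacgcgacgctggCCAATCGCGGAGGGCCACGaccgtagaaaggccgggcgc
HSP90B1 has 2 matches in this stretch, in opposite orientations. None of these 7 genes was called, and the window of the called DNAJB9 does not hold these letters. Among 70 other pathway genes with a window it was found in 1, ERO1B, which was called higher at dim signals. The shorter element TGACGTGG, bound by ATF6 and XBP1, whose ACGTGG end can overlap the CCACG of the ER stress element on the other strand, was found in 1 gene, HYOU1, against 0.927% of all genes. A match describes the letters in the window and no more.

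Factors that remove misfolded proteins from the ER or move proteins into it had log2 fold changes from 0.06 to 0.50, and none of the 4 genes passed the test by limma (2 at an unadjusted p under 0.05, both higher, and 0 by the methods' t-test after adjustment). HERPUD1, a membrane scaffold of the degradation complex, read 1635, 1381 and 1400 in monolayers and 2059, 2247 and 2598 in spheroids. EDEM1, which marks misfolded glycoproteins for removal, read 374.1, 383.0 and 367.5 against 501.6, 594.3 and 610.3. At both genes every spheroid array was above every monolayer array, with log2 fold changes of 0.50 (adjusted p = 0.0846 by limma) and 0.45 (adjusted p = 0.0698 by limma). On deposited values both were called, HERPUD1 at 0.64 (adjusted p = 0.0105 by limma) and EDEM1 at 0.60 (adjusted p = 0.0124 by limma). SEL1L, the adaptor of the SYVN1 ligase, was at 0.28, and SEC61B, a subunit of the translocation channel, at 0.06. The median over the 4 genes was 0.37.

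Among sensors and transcription factors, 5 of 6 genes had positive log2 fold changes, with a median of 0.45, and ATF6 alone passed the test. ATF6, the sensor that is cut in the Golgi to release a transcription factor, read 504.0, 452.4 and 424.4 in monolayers and 753.3, 734.4 and 755.4 in spheroids. The spheroid arrays lay close together and above all monolayers. ATF6 rose by 0.56 (standard error 0.14, adjusted p = 0.0350 by limma). A second called probe set, at 126.8, 105.5 and 110.3 against 299.8, 318.0 and 295.0, gave 1.27 (adjusted p = 0.00124 by limma), while the remaining ones gave 0.36 and -0.33 and did not pass. The call at the brightest probe set was lost without monolayer replicate 2 (0.55, adjusted p = 0.131 by limma), monolayer replicate 3 (0.50, adjusted p = 0.146), spheroid replicate 1 (0.52, adjusted p = 0.107) or spheroid replicate 3 (0.50, adjusted p = 0.119). It was also lost without limma's trend (adjusted p = 0.20), by the methods' t-test after adjustment (adjusted p = 0.110) and by the median of ATF6 probe sets (0.47, adjusted p = 0.0691).

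XBP1, whose RNA is spliced by IRE1 into the active form, read 489.6, 349.8 and 424.5 in monolayers and 580.5, 668.3 and 697.6 in spheroids. The groups did not overlap, and the difference was 0.49 in log2 signal (limma, adjusted p = 0.101, standard error 0.16). On deposited values XBP1 was called (0.63, adjusted p = 0.0280 by limma), and these values do not separate its spliced from its unspliced form. ERN1 read 403.0, 274.2 and 253.5 against 520.5, 487.5 and 441.3 (0.52, adjusted p = 0.136 by limma), and EIF2AK3 read 664.4, 322.5 and 361.4 against 609.0, 587.0 and 607.5 (0.35, adjusted p = 0.479 by limma). At EIF2AK3 the first monolayer array was above all spheroids and the other monolayers were below them. Without that array XBP1 (0.60, adjusted p = 0.0361 by limma), ERN1 (0.73, adjusted p = 0.0117) and EIF2AK3 (0.67, adjusted p = 0.0174) were all called higher. Without both replicate 1 arrays 4 of the 6 sensors and factors were called higher, where limma called 5.12% of all genes higher. Of the 12376 genes above the median level it then called 946 higher.

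CEBPB, a leucine zipper factor that partners ATF4, read 2535, 2581 and 2440 in monolayers and 3627, 3683 and 3868 in spheroids, without overlap. The difference was 0.42 in log2 signal (limma, adjusted p = 0.0873, standard error 0.13). It was called without spheroid replicate 2 (0.50, adjusted p = 0.0333 by limma) and on deposited values (0.56, adjusted p = 0.00312 by limma). ATF4 itself, which is known to be set mostly at translation, read 1957, 2361 and 2245 against 1846, 2256 and 2634. The groups overlapped fully, with a difference of -0.12 in log2 signal (limma, adjusted p = 0.758, standard error 0.17).

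None of the 5 stress effectors passed the test (0 at an unadjusted p under 0.05 by limma, and 0 by the methods' t-test), and their signals spread widely within a group. DDIT3, also called CHOP, a factor that promotes cell death under lasting stress, read 401.7, 767.0 and 880.9 in monolayers and 644.4, 1100 and 1405 in spheroids (0.48, standard error 0.34, adjusted p = 0.473 by limma). TRIB3, a pseudokinase that restrains ATF4, read 358.6, 567.5 and 593.0 against 392.0, 587.9 and 758.1 (0.03). CHAC1, which breaks down glutathione, was the dimmest gene of the set and read 11.3, 24.1 and 41.1 against 7.09, 26.2 and 34.9. In each of these 3 genes replicate 1 was the lowest of its group in both groups.

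PPP1R15A, also called GADD34, which brings the phosphatase to eIF2, read 191.9, 481.0 and 554.2 in monolayers and 275.6, 300.6 and 340.6 in spheroids. SESN2, a sestrin that restrains mTORC1, read 135.6, 340.2 and 334.6 against 149.3, 233.3 and 210.8. In both genes the first monolayer array was far below the others, and the log2 fold changes were -0.43 (adjusted p = 0.542 by limma) and -0.50 (adjusted p = 0.440 by limma). Without monolayer replicate 1 both were called lower in spheroids, PPP1R15A at -0.91 (adjusted p = 0.00712 by limma) and SESN2 at -0.94 (adjusted p = 0.00875 by limma).

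Asparagine synthetase and the tRNA synthetases all had negative log2 fold changes, and 2 of 4 were called lower. ASNS, which makes asparagine from aspartate and is a standard ATF4 target, read 371.7, 775.3 and 841.0 in monolayers and 188.4, 368.5 and 314.4 in spheroids. The groups met but did not overlap. In log2 signal ASNS fell by 1.30 (limma, adjusted p = 0.0362, standard error 0.32). This call was the least stable of the 9, lost in 12 of 17 other settings, among them on deposited values (-1.16, adjusted p = 0.0738 by limma) and without any 1 of the arrays other than monolayer replicate 1, where the log2 fold change lay between -1.44 and -1.05 and the adjusted p between 0.0785 and 0.132. Without monolayer replicate 1 it was -1.68 (adjusted p = 0.00174 by limma). With a replicate block the call held (adjusted p = 0.000605 by limma), but the labels do not say whether the numbers pair the cultures. A second ASNS probe set, with signals between 0.416 and 2.49, gave 0.49 and did not pass. The setting that takes the median of a gene's probe sets, which lost the call, includes this dim one.

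AARS1, which charges tRNA with alanine, read 1486, 1849 and 1791 in monolayers and 1072, 1200 and 1177 in spheroids. All spheroids were below all monolayers. AARS1 fell by 0.71 (standard error 0.14, adjusted p = 0.0129 by limma), and the call was lost without monolayer replicate 2 (-0.65, adjusted p = 0.0777) or monolayer replicate 3 (-0.68, adjusted p = 0.0686), without limma's trend (adjusted p = 0.133) and by the methods' t-test after adjustment (adjusted p = 0.0788). GARS1, the glycyl-tRNA synthetase, was at -0.42 (adjusted p = 0.179 by limma). WARS1, the tryptophanyl-tRNA synthetase, was at -0.35 by its brightest probe set (adjusted p = 0.422 by limma) and at -0.74 by the other one (adjusted p = 0.0645 by limma). The brightest read 319.5, 552.3 and 562.0 in monolayers and 362.5, 406.7 and 440.4 in spheroids, with the first monolayer array below all others. Without that array WARS1 was called lower at -0.62 (adjusted p = 0.0283 by limma).

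ATF4 binds DNA with C/EBP factors at a composite element whose core was searched as TGATGNAA on both strands of the same RefSeq windows. It was found in 7 genes (ASNS, AARS1, GARS1, CHAC1, SLC3A2, SLC7A1 and HERPUD1), of which 6 are among the 12 ATF4 targets with a window and 0 among the 12 chaperones with one, against 4.46% of all genes. The windows shown are those of genes that fell (ASNS, AARS1) and of genes that did not pass the test (GARS1, CHAC1), with the core in capitals. They are the whole window of ASNS (chr7:97872359-97872658, minus strand) and stretches with 20 bases on each side in AARS1 (chr16:70289666-70289713, minus strand), GARS1 (chr7:30594825-30594872, plus strand) and CHAC1 (chr15:40953242-40953289, plus strand).
ASNS: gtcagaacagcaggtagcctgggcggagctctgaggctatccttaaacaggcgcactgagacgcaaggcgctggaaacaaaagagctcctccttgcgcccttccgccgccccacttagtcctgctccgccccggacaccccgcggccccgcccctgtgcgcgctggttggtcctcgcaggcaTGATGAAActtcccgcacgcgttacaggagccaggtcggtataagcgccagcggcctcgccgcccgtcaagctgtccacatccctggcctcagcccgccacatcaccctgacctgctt
AARS1: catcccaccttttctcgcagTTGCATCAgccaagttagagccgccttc
GARS1: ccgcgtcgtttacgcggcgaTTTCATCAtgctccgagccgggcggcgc
CHAC1: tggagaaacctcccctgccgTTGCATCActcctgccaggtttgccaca
In AARS1, GARS1 and CHAC1 the core is read on the opposite strand of the gene. Of the 7 genes with the core, ASNS, AARS1 and SLC3A2 were called lower and the other 4 were not called. The windows of PHGDH, PSAT1, MTHFD2 and SLC7A5, which were also called lower, hold none of the elements searched, which says only that those letters are not in this window.

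The amino acid transporters had negative log2 fold changes too, and 2 of 4 were called lower. SLC7A5, or LAT1, exchanges large neutral amino acids such as leucine, and SLC3A2, or 4F2hc, is the chain that carries it to the cell surface. SLC7A5 read 2076, 1455 and 1489 in monolayers and 670.0, 813.7 and 742.2 in spheroids. The highest spheroid lay well below the lowest monolayer, and SLC7A5 fell by 1.30 in log2 signal, to 0.405 of the monolayer level (limma, adjusted p = 0.00191, standard error 0.16). It was called without any 1 of the arrays, and lost its call without limma's trend (adjusted p = 0.0620) and by the methods' t-test after adjustment (adjusted p = 0.0578). SLC3A2 read 1216, 919.3 and 1053 against 591.2, 715.3 and 785.1. It fell by 0.75 (standard error 0.16, adjusted p = 0.0218 by limma), with no overlap, and lost the call without monolayer replicate 3 (-0.76, adjusted p = 0.0776), spheroid replicate 1 (-0.67, adjusted p = 0.0778) or spheroid replicate 2 (-0.70, adjusted p = 0.0753), without both replicate 1 arrays (-0.57, adjusted p = 0.0750), without limma's trend (adjusted p = 0.156) and by the methods' t-test after adjustment (adjusted p = 0.137).

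SLC7A11, the cystine importer xCT, which also pairs with SLC3A2, read 374.4, 1621 and 1825 in monolayers and 657.6, 1156 and 1837 in spheroids. Replicate 1 was far below the others in each group and the groups overlapped fully, with a difference of -0.03 in log2 signal (limma, adjusted p = 0.984, standard error 0.58). SLC7A1, the arginine and lysine transporter CAT1, was at -0.28 (adjusted p = 0.358 by limma).

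The serine enzymes held the largest falls of the set. PHGDH, which commits the glycolytic intermediate 3-phosphoglycerate to serine synthesis, read 545.1, 673.7 and 614.3 in monolayers and 179.1, 193.2 and 168.7 in spheroids. Each group was tight and the groups lay far apart. PHGDH fell by 1.90 in log2 signal, to 0.267 of the monolayer level (limma, adjusted p = 0.000319, standard error 0.13). It was the only member whose call held in all 17 other settings tried, with log2 fold changes between -2.01 and -1.72 and adjusted p of at most 0.0444.

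PSAT1, the transaminase of the next step, read 1186, 1486 and 1723 in monolayers and 366.8, 678.3 and 601.0 in spheroids. The groups did not overlap, and PSAT1 fell by 1.59 (standard error 0.22, adjusted p = 0.00295 by limma) and, at its other probe set, by 2.24 (adjusted p = 0.000923 by limma). Its call at the brighter probe set was lost without limma's trend (adjusted p = 0.0673) and by the methods' t-test after adjustment (adjusted p = 0.0863). MTHFD2, a folate enzyme of the mitochondrion, read 1782, 2031 and 2132 against 1140, 1494 and 1509. All spheroids were below all monolayers, and MTHFD2 fell by 0.67 (standard error 0.15, adjusted p = 0.0237 by limma). This call was lost without monolayer replicate 2 (-0.65, adjusted p = 0.107), monolayer replicate 3 (-0.62, adjusted p = 0.108), spheroid replicate 1 (-0.57, adjusted p = 0.0860) or spheroid replicate 2 (-0.66, adjusted p = 0.0631). It was also lost after scaling to the 75th percentile (-0.54, adjusted p = 0.0541), without limma's trend (adjusted p = 0.165) and by the methods' t-test after adjustment (adjusted p = 0.120).

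PSPH, the phosphatase of the last step of serine synthesis, was at 0.30 by its brightest probe set (845.7, 630.6 and 696.6 in monolayers against 1064, 874.2 and 1017 in spheroids) and at -0.41 by another (457.3, 492.9 and 587.1 against 377.3, 473.9 and 429.0). The probe sets disagreed in sign and neither passed the test, so no direction is given. SHMT2, which passes a carbon unit from serine to folate in the mitochondrion, was at -0.24 (adjusted p = 0.297 by limma).

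The cultures numbered 1 stood apart at some ATF4 targets. In centred signal, replicate 1 was the lowest of its group in both groups for 6 of the 13 ATF4 targets (ASNS, CHAC1, DDIT3, SESN2, SLC7A11 and TRIB3) and for MTHFD2 and PSAT1 among the 5 serine and folate enzymes, against 0 of the 13 chaperones and 12.8% of all genes. In deposited signal this also held for the targets AARS1, GARS1, WARS1 and PPP1R15A and for SHMT2. The share of all genes was not counted on deposited values. Relative to the other monolayers and the other spheroids in log2 signal, SLC7A11 was at -2.20 and -1.06, DDIT3 at -1.03 and -0.86, and ATF4 itself at -0.23 and -0.31. Other genes went the opposite way on the first monolayer array, with the transporters SLC7A5, SLC7A1 and SLC3A2 at 0.50, 0.50 and 0.31 above the other monolayers. All 13 chaperones were above them too, from 0.08 at CALR to 0.65 at HYOU1 and 0.71 at PDIA4. On the first spheroid array the chaperones lay on both sides of the other spheroids, from -0.24 at SDF2L1 to 0.36 at PDIA4. The labels give the numbers no meaning shared between groups, and what the cultures numbered 1 have in common was not tested.

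**Figure D3:**
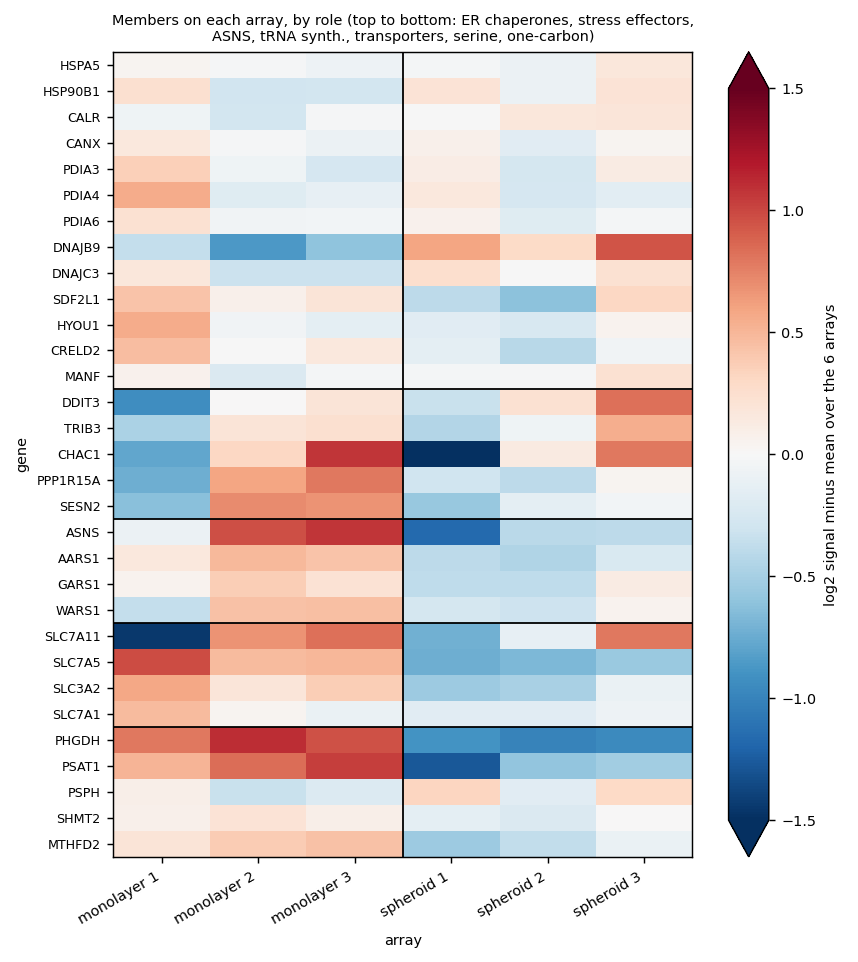
Centred log2 signal of each gene minus its mean over the 6 arrays, for the chaperones, stress effectors, asparagine and tRNA synthetases, transporters and serine enzymes (rows) on each array (columns), red above and blue below the mean, with colours ending at 1.5 in either direction. In the chaperone block DNAJB9 has the deepest colours, followed by SDF2L1 at -0.62 on spheroid array 2 and PDIA4 and HYOU1 at 0.55 on monolayer array 1. PHGDH and PSAT1 are red in all monolayers and blue in all spheroids, and replicate 1 is blue in both groups for DDIT3, CHAC1, SESN2 and SLC7A11.

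Without both replicate 1 arrays (2 against 2) the chaperones had 1 of 13 called higher and 0 lower by limma with a median of 0.09, ATF4 targets 0 higher and 5 lower with a median of -0.57, and serine and folate enzymes 3 of 5 lower with a median of -0.65. Over all members 5 were then called higher and 8 lower, where 5.12% of all genes were higher and 11.3% lower. Of the 12376 genes above the median level, where all members lie, 946 were then called higher and 2202 lower.

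The 41 genes were read by 89 probe sets of their own, and 27 genes had several. Limma called 5 of these probe sets higher and 8 lower, where 2.78% of all probe sets were higher and 6.65% lower. The called probe sets belonged to the 9 called genes alone. At 7 genes all spheroid arrays lay above all monolayer arrays in centred signal and at 9 all lay below, against 11.7% and 20.6% of all genes. Of the 12376 genes above the median level, where all members lie, 1715 had all spheroids above and 3659 all below. At 7 members this reading differed on deposited values. Probe sets of a gene differed in sign at CALR, CANX, ATF6, ERN1, ASNS and PSPH, among others.

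**Figure D4:**
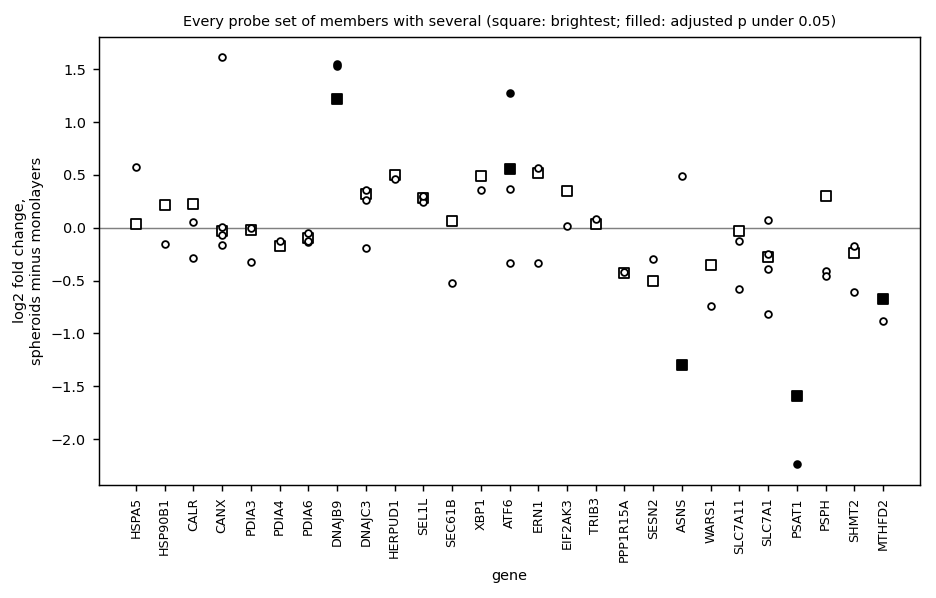
Log2 fold change (spheroids minus monolayers) of every probe set for the 27 genes with several, squares for the brightest and filled symbols for an adjusted p under 0.05 by limma. The 3 probe sets of DNAJB9 lie together between 1.21 and 1.55, those of PSAT1 are both below -1.5, and those of ATF6 spread from -0.33 to 1.27.

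Other genes of the same pathways, listed by role and not by how they moved, were read in the same way. Among other ER folding genes 2 of 12 were called higher and 0 lower by limma (1 lower at an unadjusted p under 0.05). Over all genes 3.88% were called higher and 9.22% lower, and over genes above the median level 5.76% and 14.5%. The called folding genes were ERO1A and ERO1B, oxidases that recharge the disulfide isomerases. ERO1A read 865.3, 922.3 and 1048 in monolayers and 1473, 1939 and 1571 in spheroids (0.66, adjusted p = 0.0134 by limma). ERO1B was dim, at 21.2, 14.8 and 17.4 in monolayers and 34.1, 52.8 and 49.1 in spheroids (1.19, adjusted p = 0.0312 by limma). Its monolayer signals were close to the median of the arrays, and whether they exceed background is unknown. None of 18 other degradation and translocation genes was called (6 at an unadjusted p under 0.05 by limma, 0 by the methods' t-test after adjustment), and their median was 0.05.

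Of the 17 cytosolic tRNA synthetases read, 9 were called lower by limma, AARS1 among them, against 9.22% of all genes and 14.5% of those above the median level. The methods' t-test after adjustment called 4 of the 17, and limma without both replicate 1 arrays called 7. Of 14 other cytosolic tRNA synthetases, 8 were called lower and 0 higher (0 higher at an unadjusted p under 0.05), and all 17 cytosolic enzymes read had negative log2 fold changes with a median of -0.55. FARSB, a subunit of the phenylalanyl enzyme, read 1178, 1300 and 1416 in monolayers and 538.5, 627.3 and 553.5 in spheroids (-1.32, adjusted p = 0.000739 by limma). VARS1, the valyl enzyme, read 738.8, 711.1 and 726.8 against 309.1, 351.7 and 234.2 (-1.45, adjusted p = 0.000794 by limma). FARSA and HARS1 fell by 0.87 and 0.80.

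Of 10 further eIF2 kinases and eIF2 regulators, 4 were called lower and 0 higher (0 higher at an unadjusted p under 0.05). Over all genes 9.22% were called lower, and over those above the median level 14.5%. EIF2S1, the eIF2 subunit that the stress kinases phosphorylate, read 2098, 2564 and 2470 in monolayers and 1141, 1377 and 1303 in spheroids and fell by 1.04 (adjusted p = 0.0023 by limma). EIF2B3, EIF2B1 and EIF2B5, subunits of the exchange factor that recharges eIF2, fell by 1.32, 0.79 and 0.53. Among 5 other folate enzymes MTHFD1, the cytosolic trifunctional enzyme, fell from 2228, 2318 and 2255 to 1171, 1326 and 1193 (-1.03, adjusted p = 0.00124 by limma) and the others did not pass. Of these others, SHMT1, MTHFD1L and ALDH1L2 read only 2.35 to 15.1 over all arrays, too dim for a missing call to show that they did not change.

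Other ATF4 targets moved in both directions, 2 of 19 being called higher and 3 lower, with a median of -0.03. The shares over all genes were 3.88% higher and 9.22% lower, and over genes above the median level 5.76% and 14.5%. PYCR1, which makes proline, fell by 0.96 (adjusted p = 0.0034 by limma), and the neutral amino acid transporters SLC1A5 and SLC1A4 fell by 1.11 (adjusted p = 0.0110) and 0.71 (adjusted p = 0.0442). DDIT4, a restrainer of mTORC1 also called REDD1, read 858.9, 1658 and 1309 in monolayers and 3259, 3587 and 3426 in spheroids and rose by 1.33 (adjusted p = 0.0066 by limma). NUPR1, a small chromatin protein induced by stress, read 364.0, 945.1 and 911.1 against 1565, 1822 and 2119 and rose by 1.28 (adjusted p = 0.0460 by limma). At each of these 5 genes the spheroid arrays did not overlap with the monolayer arrays.

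**Figure D5:**
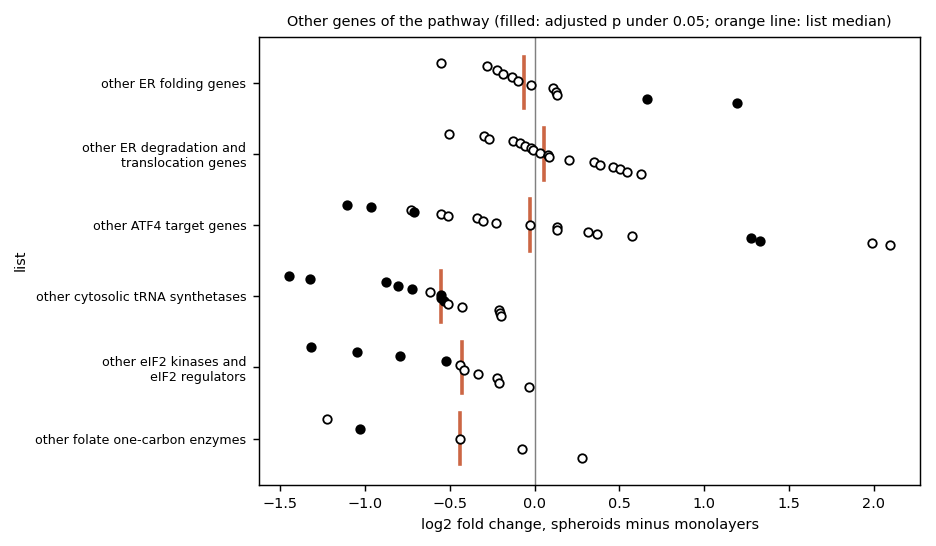
Log2 fold change (spheroids minus monolayers) of the other genes of the pathways, one point per gene and one line of points per list, filled for an adjusted p under 0.05 by limma, with an orange line at the list's median. All points of the cytosolic tRNA synthetases lie left of 0 with a median of -0.55, and those of the ER folding and degradation genes lie on both sides of it.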

How the data were processed

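Total RNA of 3 monolayer and 3 spheroid cultures of NCI-H226, labelled as biological replicates, was hybridized to 1 Affymetrix U133 Plus 2.0 array each. The authors deposited linear signal intensities from MAS5, in which all arrays share 1 trimmed mean (2% taken off each end). A normalization to median expression, which the methods also state, is not seen in these values. Detection calls were not used here, so it is unknown which signals exceed background, and the small number of arrays limits precision. The table holds 54675 probe sets, and its 62 control probe sets were not tested. Log2 signals, centred on the median of each array, went into limma 3.58.1 (R 4.3.3) (empirical Bayes with a mean-variance trend, no filter or floor), with Benjamini-Hochberg adjustment over the 54613 tested probe sets and a threshold of 0.05. Probe sets were named from GEO's platform annotation, with symbols updated by Entrez ID, and those with several symbols were not read. Of these, 4 were annotated to a member, namely to HSP90B1, PHGDH or SYVN1. All members could be named, and of each other list up to 4 called genes with the smallest adjusted p. NUPR1 falls outside this rule and was named after its values were seen. The members and lists were chosen with earlier results of these data known, so counts and medians over them are descriptions. The pipeline was tested on simulated data. Alternatives were other scalings, a floor, a filter on dim probe sets, other tests, a replicate block, leaving out each array, the median over a gene's probe sets and, added after the data had been seen, leaving out both replicate 1 arrays. Promoter windows came from RefSeq (GRCh38.p14), which had none for PDIA3, SLC7A11, PSPH and SHMT2. Protein measurements were not analysed here.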

Additional observations from a re-analysis of the deposited data

How the results depend on the processing

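Against 2 members called higher and 7 lower, the counts were 6 and 6 on deposited values, 7 and 6 after quantile normalization, 7 and 5 after scaling to the 75th percentile, 5 and 7 with only probe sets above the median level, 0 and 1 for limma without the trend, 0 and 1 for the methods' t-test after adjustment, 6 and 8 for the methods' t-test without it, 1 and 6 by the median of a gene's probe sets, and 5 and 8 without both replicate 1 arrays. In the same order, without the probe set median, member probe sets called higher (5) became 10, 11, 11, 9, 0, 1, 10 and 9, and those called lower (8) became 7, 7, 6, 11, 2, 1, 13 and 15. Over the whole array 5149 probe sets were called, 457 without the trend, 1241 by the methods' t-test after adjustment and 10731 without it. Leaving out 1 array gave 1 to 5 members higher and 3 to 10 lower, 4 to 9 member probe sets higher and 4 to 16 lower, and 2438 to 6577 probe sets in all, with the highest of each without monolayer replicate 1. No called member changed sign under any alternative. The floor and the replicate block moved none of these counts by over 1.5 times. Same-numbered arrays deviated together with correlations of 0.09, -0.01 and 0.02, and arrays of different numbers with -0.08 to 0.05. These were taken over all probe sets, dim ones included, and cannot decide whether the numbers pair the samples. With the replicate block 6133 probe sets, 2 members higher and 7 lower were called, ASNS at an adjusted p of 0.000605 by limma. Detection is unknown, which limits what can be said of dim probe sets such as that of CHAC1.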
